A study of Oryza sativa with 12 samples.

Results

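The pedicel outside the abscission zone (NAZ) was compared between W517, a rice germplasm line that sheds its grain, and DZ129, a line that has lost shattering. Genes counted as members when 3 or more of the 6 NAZ libraries reached 0.5 FPKM, and 21592 of the 35851 genes in the deposited values met this rule. FPKM is a level corrected for gene length and library size. W517NAZ and DZ129NAZ each had 3 libraries of unmodified (wild-type) plants. The other 6 libraries of the series came from the abscission zone itself (AZ), a short piece of the same pedicels, and the NAZ was all that remained of each pedicel. The labels date the samples to day 10 after flowering, while the methods count 10 days from heading. What a replicate was, a plant or a pool of pedicels, was not stated, so p-values cover only the spread between these libraries. Each cultivar was a lone line, so shattering and every other difference between the lines cannot be told apart.

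The pedicel is the stalk that carries the spikelet. In rice, a thin layer of small cells at its upper end forms the abscission zone, where cell walls loosen and the grain falls, and the tissue below it is green, conducts water and sugars to the grain, and has lignified walls that hold. Auxin, ethylene, gibberellin, cytokinin and jasmonate all take part in abscission in plants, and lignin, pectin and the enzymes that act on them set how firmly cells stay joined.

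Each library had 17119138 to 18009303 reads on genes in W517NAZ and 19674830 to 20892384 in DZ129NAZ, so that 1 read on a gene of 1500 bp was worth 0.0319 to 0.0389 FPKM. Genes without a read numbered 9753 to 9934 in W517NAZ and 8484 to 8616 in DZ129NAZ. With limma on log2(FPKM + 0.1), 5788 DEGs (adjusted p below 0.05 and more than 2-fold) were found in W517NAZ vs. DZ129NAZ, which is 26.8% of the genes tested. They were 1951 upregulated genes (9.04%) and 3837 downregulated genes (17.8%), with a median log2 fold change of −0.08 over all genes tested. Of the downregulated genes, 603 had no read in any W517NAZ library, and 215 of the upregulated genes had none in any DZ129NAZ library. Sequence that is missing from a line or differs from the reference genome could leave a gene without reads, and this was not tested. The excess of downregulated genes depended on the kind of scaling. Quantile normalization gave 2847 upregulated and 2878 downregulated genes and moved the median of all genes by 0.18. Median-ratio scaling kept the excess, with 2108 upregulated and 3602 downregulated genes.

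Product names were at hand for 1160 genes, of which 657 passed the FPKM rule, and the families described here are made of these genes alone. The study had chosen the 1160 genes because they differed between W517AZ and DZ129AZ and between W517NAZ and W517AZ but not between DZ129NAZ and DZ129AZ. That choice used the W517NAZ libraries, so the family counts are no independent evidence of a direction. It also favours genes that DZ129 does not express, because a gene without reads in DZ129 cannot differ between the DZ129 tissues. Among the 657 genes, 188 were upregulated and 204 downregulated, against 26.8% DEGs among all genes tested, with a median log2 fold change of −0.26. Every family count below is to be set beside the shares over all genes tested, 9.04% upregulated and 17.8% downregulated. Fold changes on the log2 scale include the 0.1 added to each value and so understate the change of low genes.

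**Figure D1:**
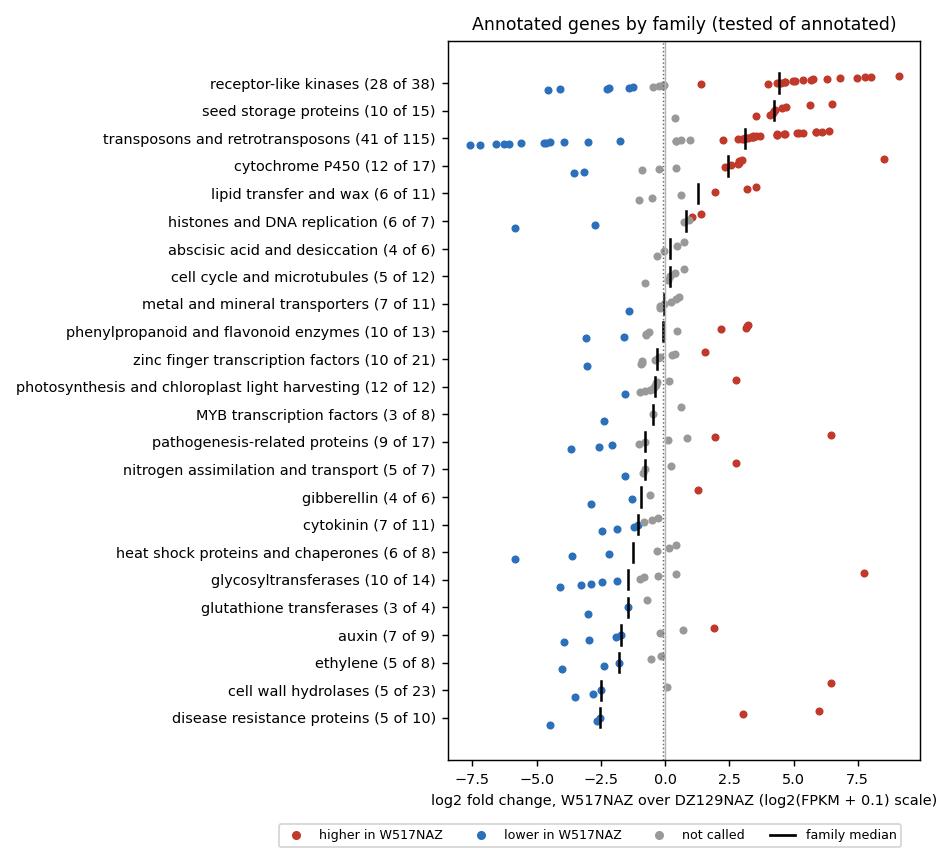
Log2 fold change (W517NAZ over DZ129NAZ, log2(FPKM + 0.1) scale) of each tested gene in the 24 families with at least 3 tested genes, ordered by family median (black bar); the dotted line is the median of all genes, −0.08. Receptor-like kinases had the highest median, 4.42, and disease resistance proteins the lowest, −2.52, with genes on both sides of 0 in either family. Of the 28 tested kinases, 16 passed the FPKM rule only through W517NAZ and so had to be higher there.

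Most photosynthesis genes of the list were slightly lower in W517NAZ. They encode the light-harvesting antenna, the photosystem subunits and the soluble electron carriers of the thylakoid, and they are among the most abundant transcripts of green tissue. The 12 genes found by product name all passed the FPKM rule. Of these, 10 lay below 0 and 11 had an adjusted p below 0.05, but only 1 was upregulated and 1 downregulated by more than 2-fold, and both are ferredoxin--nitrite reductases rather than parts of the photosystems. An adjusted p below 0.05 was common, with 15859 of all 21592 genes tested, and 26.8% of those tested were DEGs. The family median was −0.41, against −0.08 over all genes and −0.26 over the 657 tested annotated genes from which the family was drawn.

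The most abundant of them was LOC_Os08g10020, the 10 kDa polypeptide of photosystem II. It had 1056, 1030 and 1047 FPKM in W517NAZ, against 1302, 1343 and 1314 FPKM in DZ129NAZ. The groups did not overlap, and the log2 fold change was −0.34 (SE 0.04, adjusted p = 4.2e-06). Plastocyanin (LOC_Os06g01210, PETE), the copper protein that carries electrons to photosystem I, averaged 457 ± 3.32 FPKM in W517NAZ and 612 ± 23.8 FPKM in DZ129NAZ (SD, n = 3 each). Its log2 fold change was −0.42. The chlorophyll A-B binding protein LOC_Os04g38410 came nearest to the 2-fold limit, with 79.5, 82.5 and 82.9 FPKM in W517NAZ against 160, 168 and 154 FPKM in DZ129NAZ. Its log2 fold change was −0.98 (SE 0.04, adjusted p = 6.6e-11), and without DZ129NAZ replicate 3 it was a DEG. The exception was the 5 kDa protein of photosystem II (LOC_Os02g37060), at 54.1 ± 0.413 FPKM in W517NAZ and 48.9 ± 2.51 FPKM in DZ129NAZ (SD, n = 3 each), a log2 difference of 0.15 that did not pass the test (adjusted p = 0.18).

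A wider list was that of the 30 genes with the GO term thylakoid. All 30 passed the FPKM rule, 26 lay below 0 and 24 had an adjusted p below 0.05, with a median of −0.45. That adjusted p was reached by 15859 of all 21592 genes tested, so the 24 are no sign of a change special to this list. Of the 30 genes, 2 were downregulated by more than 2-fold, against 26.8% DEGs among all genes tested. They were an annexin (LOC_Os06g11800), a calcium-dependent membrane-binding protein, at 12.2 ± 0.545 FPKM in W517NAZ and 53.6 ± 2.84 FPKM in DZ129NAZ (SD, n = 3 each), and an expressed protein (LOC_Os07g09800). None was upregulated. The 6 genes taken as markers of green tissue (chlorophyll A-B binding, photosystem and plastocyanin) summed to 1863 to 1879 FPKM in W517NAZ and 2420 to 2530 FPKM in DZ129NAZ, and none was at 0. Fewer green cells and less of these transcripts per cell cannot be told apart in such pieces.

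**Figure D2:**
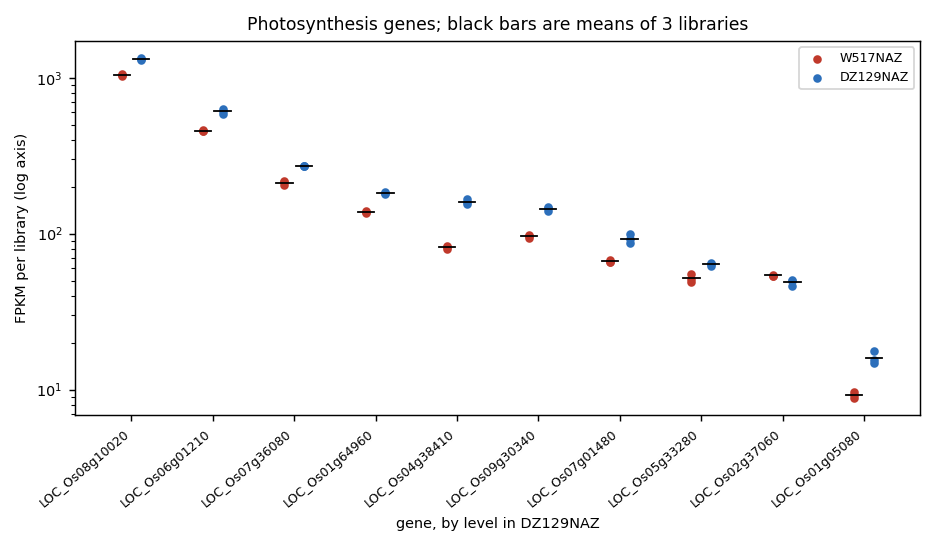
FPKM per library (log axis) of the 10 photosynthesis genes other than the nitrite reductases, with W517NAZ left of DZ129NAZ for each gene and a bar at the mean of 3 libraries. W517NAZ lies below DZ129NAZ in 9 genes and above it in LOC_Os02g37060 (54.1 and 48.9 FPKM).

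Of 5 tested nitrogen assimilation and transport genes, 1 was upregulated, 1 was downregulated and 3 were no DEGs. Nitrite reductase reduces nitrite to ammonium in the plastid. LOC_Os01g25484 had 24.9, 25.4 and 25 FPKM in W517NAZ, against 72.2, 75.6 and 73 FPKM in DZ129NAZ, and was 2.93-fold lower in W517NAZ (log2 fold change −1.55, SE 0.04, adjusted p = 3.1e-13). The other nitrite reductase, LOC_Os02g52730, stood at a far lower level, passed the FPKM rule only through W517NAZ and was upregulated, with 0.947 ± 0.0492 FPKM in W517NAZ and 0.0654 ± 0.0649 FPKM in DZ129NAZ (SD, n = 3 each). The peptide transporter gene LOC_Os06g49250, the most abundant of the 5 tested members of this family, had 106 ± 3.77 FPKM in W517NAZ and 185 ± 6.27 FPKM in DZ129NAZ (SD, n = 3 each), and the high affinity nitrate transporter LOC_Os04g40410 had 17.7 ± 0.958 and 32.8 ± 1.84 FPKM in the same groups. Their log2 fold changes were −0.80 and −0.88 and stayed within the 2-fold limit. Nitrate reductase (LOC_Os02g53130), which makes nitrite, had 4.16 ± 0.132 FPKM in W517NAZ and 3.51 ± 0.0946 FPKM in DZ129NAZ (SD, n = 3 each), a log2 fold change of 0.24 (adjusted p = 0.022).

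Transcripts of seed storage proteins were present in W517NAZ and nearly absent from DZ129NAZ. Prolamins are the alcohol-soluble storage proteins that fill protein bodies in the rice endosperm, and they are not known as products of the pedicel. Of 15 annotated genes of this kind 10 passed the FPKM rule, all of them prolamins, and 9 of these did so only through the W517NAZ libraries. The 9 were upregulated, with a median log2 fold change of 4.24 over the 10, or 4.15 with genes that had no read in DZ129NAZ set at their bound, but they had to differ once they had passed. The background share of upregulated genes was 9.04%.

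PROLM22 (LOC_Os07g11920) was highest, with 11.8, 12.8 and 12.5 FPKM in W517NAZ against 0, 0.161 and 0 FPKM in DZ129NAZ. These were 415 reads in W517NAZ and 2 reads in DZ129NAZ in all, a ratio of 239 per read sequenced with a counting interval of 65.7 to 1979 (exact 95%, counting error only). PROLM13 and PROLM23 had no read in any DZ129NAZ library and were at least 7.26-fold and 11.9-fold higher in W517NAZ, taken against 3 reads per library. PROLM17 (LOC_Os05g26750) did not pass the test, at 0.662 ± 0.269 FPKM in W517NAZ and 0.464 ± 0.117 FPKM in DZ129NAZ (SD, n = 3 each, adjusted p = 0.2), although it was upregulated under quantile normalization. Prolamin genes are close copies of each other that lie in clusters, and reads may have been shared between them in counting.

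The same 9 prolamins were far higher in the AZ pieces of W517. Their NAZ level was 7.01% to 11.7% of their AZ level in W517, with a median of 9.71%. These genes and the grain markers come from the study's list, which required W517NAZ and W517AZ to differ and the DZ129 tissues not to. A gap between the W517 tissues, though not its direction, was thus a condition of membership. The grain markers, 17 annotated prolamin, glutelin and starch synthesis genes, summed to 139 to 157 FPKM in W517NAZ and 74.8 to 78.1 FPKM in DZ129NAZ, of which none was at 0 throughout W517NAZ and 4 were at 0 throughout DZ129NAZ. In the AZ they summed to 906 to 955 FPKM in W517AZ and 81.7 to 87.3 FPKM in DZ129AZ. Whether grain tissue or its RNA reached the pieces was not tested.

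Most of the sum in DZ129NAZ came from starch synthesis. Glucose-1-phosphate adenylyltransferase makes ADP-glucose, the building block of starch. Its large subunit gene LOC_Os08g25734 had 73.1, 63.2 and 67.7 FPKM in W517NAZ and 67.5, 68 and 64.9 FPKM in DZ129NAZ, and the groups overlapped (adjusted p = 0.65). The large subunit gene LOC_Os01g44220 was upregulated, with 36.7, 29.5 and 29.4 FPKM in W517NAZ against 9.43, 8.22 and 8.55 FPKM in DZ129NAZ (log2 fold change 1.85, SE 0.09, adjusted p = 2.7e-10).

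**Figure D3:**
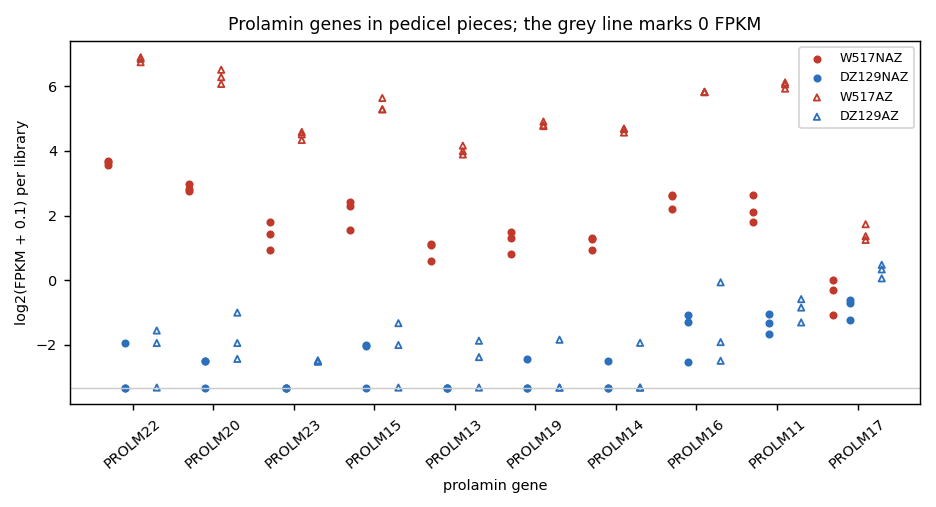
log2(FPKM + 0.1) per library of the 10 tested prolamin genes in W517NAZ, DZ129NAZ, W517AZ and DZ129AZ, with 3 points per group and the grey line at 0 FPKM. In 9 genes W517NAZ lies between W517AZ above and both DZ129 tissues below, while PROLM17 overlaps between W517NAZ and DZ129NAZ.

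Auxin, ethylene, cytokinin and gibberellin genes had medians below 0, with genes on both sides of 0 for auxin and gibberellin. Over all genes tested, 9.04% were upregulated and 17.8% downregulated, an excess that quantile normalization nearly removed and median-ratio scaling kept. The counts for each hormone rest on few genes and do not show a joint lowering. Of 7 tested genes of 9 annotated for auxin, 1 was upregulated and 4 were downregulated, with a median of −1.72 that came to −0.22 without the FPKM rule. Aux/IAA proteins repress auxin-responsive transcription until auxin triggers their breakdown. OsIAA4 (LOC_Os01g18360) had 0.703, 0.39 and 0.338 FPKM in W517NAZ, against 8.79, 8.82 and 7.83 FPKM in DZ129NAZ. It was 17.8-fold lower in W517NAZ (log2 fold change −3.94, SE 0.19, adjusted p = 3.4e-10). OsIAA9 (LOC_Os02g56120) was low in both groups, at 0.564 ± 0.148 FPKM in W517NAZ and 0.662 ± 0.0723 FPKM in DZ129NAZ (SD, n = 3 each, adjusted p = 0.39). The ILR1-like gene LOC_Os07g14610 was downregulated too. In Arabidopsis, ILR1 hydrolases release active auxin from its amino acid conjugates. This gene had 3.61, 2.93 and 3.47 FPKM in W517NAZ and 25.2, 28 and 26.4 FPKM in DZ129NAZ (log2 fold change −2.96, SE 0.08, adjusted p = 1.2e-12).

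The genes named for auxin-induced protein 5NG4 did not move together. The more abundant, LOC_Os02g01326, had 33.7, 40.7 and 42.5 FPKM in W517NAZ against 131, 122 and 132 FPKM in DZ129NAZ (log2 fold change −1.72). LOC_Os05g33900 had 8.22, 8.23 and 9.26 FPKM in W517NAZ against 1.89, 2.2 and 2.61 FPKM in DZ129NAZ (log2 fold change 1.90). The first was downregulated and the second upregulated, each without overlap between the groups. OsSAUR29 (LOC_Os06g50040), of the small auxin-up RNA family, was 3.97-fold lower in W517NAZ, and auxin response factor 7 (LOC_Os02g35140), a transcription factor that binds auxin-responsive promoters, was 1.63-fold higher and within the 2-fold limit.

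For ethylene, 0 of 5 tested genes were upregulated and 3 were downregulated, and all 5 lay below 0, with a median of −1.78 that came to −0.36 without the FPKM rule and −1.06 with pseudocount 1. The largest difference was that of 1-aminocyclopropane-1-carboxylate oxidase, which carries out the last step of ethylene synthesis. LOC_Os05g05670 had 0.578, 0.549 and 1.37 FPKM in W517NAZ, against 14.4, 12.6 and 14.2 FPKM in DZ129NAZ (log2 fold change −4.00, SE 0.26, adjusted p = 7.8e-09). A homolog, LOC_Os08g30150, passed the FPKM rule only through DZ129NAZ and so had to be lower, at 0.229 ± 0.0857 FPKM in W517NAZ and 1.56 ± 0.162 FPKM in DZ129NAZ (SD, n = 3 each). The more abundant homolog LOC_Os03g64280 did not pass the test, at 8.23 ± 0.234 FPKM in W517NAZ and 9.27 ± 0.243 FPKM in DZ129NAZ (SD, n = 3 each, adjusted p = 0.082). Downstream, the ethylene-responsive transcription factor LOC_Os03g09170 was 3.6-fold lower in W517NAZ. The ethylene-insensitive 3 gene LOC_Os03g20790, whose Arabidopsis counterpart is the central transcription factor of the ethylene response, had 11.9, 11.4 and 9.81 FPKM in W517NAZ and 16.7, 15.8 and 16 FPKM in DZ129NAZ, a log2 fold change of −0.55.

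Among 7 tested genes found by the cytokinin terms, 0 were upregulated and 4 were downregulated, with a median of −1.07 that came to −0.57 under quantile normalization. This list also holds 2 nicotianamine synthases, enzymes of metal chelation, of which LOC_Os07g48980 was 1 of the 4. The type-A response regulator OsRR2 (LOC_Os02g35180) belongs to a class that is induced by cytokinin and dampens its signal. It had 13.5, 17.1 and 16.9 FPKM in W517NAZ, against 37, 37.7 and 35.5 FPKM in DZ129NAZ (log2 fold change −1.22, SE 0.07, adjusted p = 4.0e-09). The cytokinin glucosyltransferases, which inactivate the hormone by adding glucose, all lay below 0. LOC_Os07g13800 had 0.284 ± 0.286 FPKM in W517NAZ and 1.54 ± 0.228 FPKM in DZ129NAZ (SD, n = 3 each, log2 fold change −2.47, adjusted p = 5.7e-04), and LOC_Os02g51930 had 0.631 ± 0.236 and 2.5 ± 0.174 FPKM in the same groups.

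Of 4 tested gibberellin genes of 6 annotated, 1 was upregulated and 2 were downregulated, with a median of −0.94 that came to −0.58 without the FPKM rule and −0.35 under quantile normalization. Gibberellin 2-beta-dioxygenases inactivate gibberellins. Gibberellin 2-beta-dioxygenase 1 (LOC_Os05g11810) had 1.5, 0.858 and 1.3 FPKM in W517NAZ against 9.25, 9.09 and 10.4 FPKM in DZ129NAZ (log2 fold change −2.90, SE 0.15, adjusted p = 1.0e-09). Gibberellin 2-beta-dioxygenase 7 (LOC_Os02g41954) had 1.62, 1.96 and 1.36 FPKM in W517NAZ against 0.591, 0.56 and 0.671 FPKM in DZ129NAZ (log2 fold change 1.29). The GID1L2 receptor gene LOC_Os09g28230 was 2.75-fold lower in W517NAZ. With a pseudocount of 0.5 or 1, LOC_Os05g11810 alone among the 4 tested genes was a DEG.

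In the jasmonate group, both tested genes were DEGs, in opposite directions. 12-oxophytodienoate reductase acts in jasmonate synthesis, and the gene LOC_Os01g27230 had 12.4, 12.5 and 13.4 FPKM in W517NAZ against 1.52, 1.42 and 1.53 FPKM in DZ129NAZ (log2 fold change 3.02, SE 0.10, adjusted p = 6.6e-12). A jasmonate-induced protein gene, LOC_Os04g22900, had 7.54 ± 0.87 FPKM in W517NAZ and 17.5 ± 0.381 FPKM in DZ129NAZ (SD, n = 3 each). The BRASSINOSTEROID INSENSITIVE 1-associated receptor kinase gene LOC_Os06g16330, named after a partner of the brassinosteroid receptor, was 4.94-fold lower in W517NAZ. None of the 4 tested genes for late embryogenesis abundant proteins and protein phosphatase 2C, both linked to abscisic acid, was a DEG, and the most abundant, the phosphatase LOC_Os02g55560, had 21.8 ± 2.26 FPKM in W517NAZ and 12.9 ± 1.13 FPKM in DZ129NAZ (SD, n = 3 each).

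The 10 genes assigned to the pathway plant hormone signal transduction gave 7 tested genes, with 0 upregulated and 4 downregulated, against 9.04% and 17.8% over all genes tested. Besides OsIAA4, OsSAUR29 and OsRR2, the downregulated genes included LOC_Os05g37170, annotated only as a transcription factor, at 0.928 ± 0.224 FPKM in W517NAZ and 12.8 ± 0.638 FPKM in DZ129NAZ (SD, n = 3 each, log2 fold change −3.67, adjusted p = 2.1e-11).

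**Figure D4:**
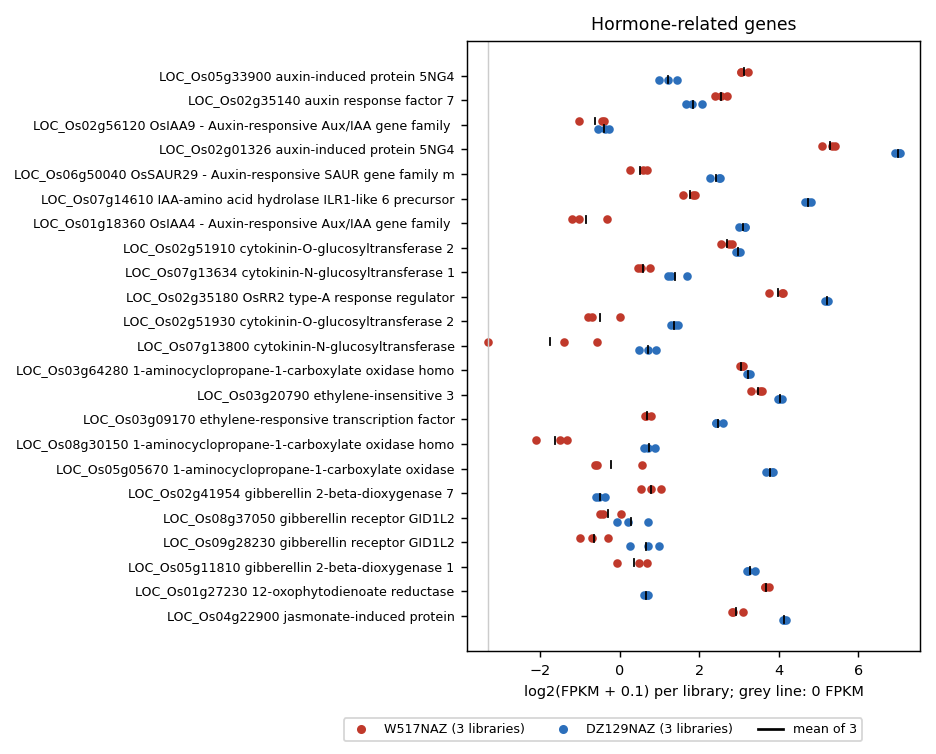
log2(FPKM + 0.1) per library of the tested hormone-related genes, with W517NAZ above DZ129NAZ for each gene and a bar at the mean of 3 libraries. The W517NAZ points of OsIAA4, LOC_Os05g05670 and LOC_Os05g11810 lie well to the left of the DZ129NAZ points, and those of LOC_Os01g27230 and LOC_Os05g33900 to the right.

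Of 23 genes annotated for cell wall hydrolysis 5 passed the FPKM rule, with 1 upregulated, 3 downregulated and a median of −2.51 that turned to 0.25 without the rule. The polygalacturonase passed only through DZ129NAZ and the upregulated gene only through W517NAZ, so both had to differ. Polygalacturonase cuts the pectin that glues cells together. LOC_Os07g10730 had 0.0743, 0.212 and 0.286 FPKM in W517NAZ, against 2.62, 2.85 and 3.75 FPKM in DZ129NAZ (log2 fold change −3.51, SE 0.31, adjusted p = 1.9e-07). A pectin acetylesterase gene, LOC_Os02g47400, was 8.19-fold lower in W517NAZ, while its relative LOC_Os01g66840 had 1.69 ± 0.315 FPKM in W517NAZ and 1.61 ± 0.302 FPKM in DZ129NAZ (SD, n = 3 each, adjusted p = 0.75). The glycosyl hydrolase family 17 gene LOC_Os01g71670, of the family of the plant beta-1,3-glucanases, had 2.31 ± 0.34 FPKM in W517NAZ and 13.5 ± 0.31 FPKM in DZ129NAZ (SD, n = 3 each).

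The upregulated member was no hydrolase but an inhibitor. The xylanase inhibitor gene LOC_Os06g24990 had 6.86, 9.98 and 9.3 FPKM in W517NAZ and no read in any DZ129NAZ library, at least 33.1-fold higher in W517NAZ against 3 reads per library. Another family 17 gene, LOC_Os03g14210, did not reach the FPKM rule, with 20 reads in W517NAZ and 8 reads in DZ129NAZ over 3 libraries each.

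Of 2 tested genes for wall assembly 1 was downregulated and 1 upregulated. CSLE1 (LOC_Os09g30120), a cellulose synthase-like gene, had 7.41, 5.48 and 5.66 FPKM in W517NAZ against 53.9, 55.7 and 55.8 FPKM in DZ129NAZ (log2 fold change −3.15, SE 0.12, adjusted p = 2.7e-11). A COBRA-like gene (LOC_Os03g30260), whose family acts in cellulose deposition, had 1.18 ± 0.0737 FPKM in W517NAZ and 0.0116 ± 0.0101 FPKM in DZ129NAZ (SD, n = 3 each), from 174 reads in W517NAZ and 2 in DZ129NAZ, and passed the FPKM rule only through W517NAZ. The formin gene LOC_Os02g06580, with the GO term cell wall, was 21.3-fold lower in W517NAZ. Formins assemble actin filaments. The 36 genes with that term gave 18 tested genes, 5 upregulated and 6 downregulated, with a median of −0.40.

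LAC7 (LOC_Os01g63180) was upregulated in W517NAZ. It encodes a laccase precursor, and plant laccases oxidize the phenolic units of lignin. It had 83.8, 83.5 and 86.7 FPKM in W517NAZ, against 11.1, 14.4 and 12.9 FPKM in DZ129NAZ. The groups did not overlap, and W517NAZ was 6.62-fold higher (log2 fold change 2.72, SE 0.12, adjusted p = 1.8e-10). The 3-oxo-5-alpha-steroid 4-dehydrogenase gene LOC_Os01g63260, named for the kind of enzyme that DET2, a brassinosteroid synthesis enzyme, is in Arabidopsis, was low and downregulated, with 0.29, 0.619 and 0.487 FPKM in W517NAZ against 2.43, 3.4 and 2.62 FPKM in DZ129NAZ (log2 fold change −2.40, SE 0.23, adjusted p = 4.5e-07).

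Peroxidases, like laccases, can couple lignin units. Of 7 annotated laccase and peroxidase genes 2 passed the FPKM rule, both only through W517NAZ, so they had to be higher there and give no direction for the family. LOC_Os06g32990 had 4.02, 4.7 and 4.27 FPKM in W517NAZ against 0.0347, 0.0736 and 0.0356 FPKM in DZ129NAZ (log2 fold change 4.91, SE 0.22, adjusted p = 1.7e-10). The 9 annotated markers of lignifying tissue, LAC7 not among them, summed to 8.61 to 11.6 FPKM in W517NAZ and 2.57 to 3.56 FPKM in DZ129NAZ, and 1 of them was at 0 throughout DZ129NAZ. Of 4 tested markers 3 were upregulated, and these 3 passed the FPKM rule only through W517NAZ and so had to be higher there. The phenylpropanoid and flavonoid list described next summed to 35.5 to 38.6 FPKM in W517NAZ and 48.5 to 52.6 FPKM in DZ129NAZ. Its genes had no common direction. The most abundant of them, LOC_Os04g09604, was no DEG, at means of 16.6 FPKM in W517NAZ and 25.9 FPKM in DZ129NAZ.

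Phenylpropanoid and flavonoid enzymes had no common direction. Of 10 tested genes of 13 annotated, 4 were upregulated and 2 downregulated, with a median of −0.08 equal to that of all genes. All 4 upregulated genes passed the FPKM rule only through W517NAZ. Chalcone synthase, the entry enzyme of flavonoid synthesis (LOC_Os01g41834), had 2.09, 1.99 and 2.25 FPKM in W517NAZ against 0.399, 0.169 and 0 FPKM in DZ129NAZ (log2 fold change 3.21, SE 0.49, adjusted p = 4.6e-05). Dihydroflavonol-4-reductase, a later enzyme on the way to anthocyanins, went the other way: LOC_Os09g31506 had 0.763, 0.435 and 0.477 FPKM in W517NAZ against 5.25, 5.21 and 5.77 FPKM in DZ129NAZ (log2 fold change −3.10), and LOC_Os02g56690 was 3.2-fold lower. The leucoanthocyanidin dioxygenase LOC_Os02g17940, which acts next, had 6.07 ± 0.665 FPKM in W517NAZ and 10.1 ± 0.324 FPKM in DZ129NAZ (SD, n = 3 each), within the 2-fold limit.

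The cinnamoyl-CoA reductases, which open the branch toward lignin, differed from each other. LOC_Os08g17500 had 1.89, 3.52 and 2.1 FPKM in W517NAZ against 0.135, 0.215 and 0.207 FPKM in DZ129NAZ (log2 fold change 3.15), and LOC_Os01g18120 had 1.08 ± 0.258 FPKM in W517NAZ and 1.83 ± 0.272 FPKM in DZ129NAZ (SD, n = 3 each). The most abundant member was an O-methyltransferase (LOC_Os04g09604), at 16.6 ± 0.612 FPKM in W517NAZ and 25.9 ± 1.56 FPKM in DZ129NAZ (SD, n = 3 each), a log2 fold change of −0.63.

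Receptor-like kinases were read in W517NAZ at many loci that had few reads or none in DZ129NAZ. These membrane proteins carry an outer domain that senses peptides, sugars or wall fragments and an inner kinase that passes the signal on. Of 38 annotated genes 28 passed the FPKM rule, 16 of them only through W517NAZ and 2 only through DZ129NAZ, so these had to differ. There were 17 upregulated and 6 downregulated genes, with a median of 4.42, and 5 were no DEGs. The shares over all genes tested were 9.04% upregulated and 17.8% downregulated. Both the rule and the choice of the list favoured genes that are low in DZ129NAZ, so these counts and the median are no evidence of a direction. Without the FPKM rule, the median of this family was 0.65. OsWAK60 apart, the upregulated genes lay at or near 0 FPKM in DZ129NAZ, with means up to 0.189 FPKM (LOC_Os02g12010).

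LOC_Os02g40190, a receptor kinase, was the extreme, with 69, 70 and 70 FPKM in W517NAZ against 0, 0 and 0.107 FPKM in DZ129NAZ. These were 3385 reads in W517NAZ and 2 in DZ129NAZ, a ratio of 1948 per read sequenced (exact 95% counting interval 539 to 16094). The leucine-rich repeat kinase LOC_Os02g13420 had 30.1, 34.7 and 30.7 FPKM in W517NAZ and 0.045 ± 0.0164 FPKM in DZ129NAZ (SD, n = 3). The pair LOC_Os05g16420 and LOC_Os05g16430, both named SHR5-receptor-like kinase and next to each other by locus number, had 23 ± 4.02 and 2.74 ± 0.57 FPKM in W517NAZ (SD, n = 3 each), with 1 and 2 reads in DZ129NAZ. The lectin-like receptor kinases LOC_Os07g03930 and LOC_Os07g03950, also close in number, had no read in DZ129NAZ and were at least 43.2-fold and 69.1-fold higher in W517NAZ. Another lectin-like kinase with a nearby number, LOC_Os07g03830, was not a DEG, at 3.52 ± 0.438 FPKM in W517NAZ and 4.91 ± 0.306 FPKM in DZ129NAZ (SD, n = 3 each).

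Downregulated kinases also lay close together by number. LOC_Os01g02350, named ARK1AS, had 0.0883, 0.021 and 0.149 FPKM in W517NAZ against 4.25, 4 and 4.08 FPKM in DZ129NAZ, 47.8-fold lower in W517NAZ (log2 fold change −4.56, SE 0.22, adjusted p = 4.2e-10). LOC_Os01g02800 and LOC_Os01g02760 were 21.1-fold and 5.27-fold lower. Close copies of these genes could share reads.

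Wall-associated kinases (OsWAK) bind pectin in the wall. By a list drawn up after the values were seen, 8 of 10 annotated genes of this name were tested, 5 of them upregulated and 1 downregulated. Of the 8 genes, 4 passed the FPKM rule only through W517NAZ and so had to be higher there. The most abundant was OsWAK60 (LOC_Os04g30240), which was read well in both cultivars, with 55.3, 59.5 and 58.6 FPKM in W517NAZ against 20.9, 22.8 and 21.5 FPKM in DZ129NAZ (log2 fold change 1.41, SE 0.06, adjusted p = 2.1e-10). OsWAK40 (LOC_Os04g29790) had 21.6 ± 0.361 FPKM in W517NAZ and 0.0617 ± 0.0611 FPKM in DZ129NAZ (SD, n = 3 each), and OsWAK24 (LOC_Os02g56630) had no read in DZ129NAZ, at least 77-fold higher in W517NAZ. OsWAK115 (LOC_Os08g27810) was 2.11-fold lower in W517NAZ, and OsWAK71 and OsWAK77 did not pass the test (adjusted p = 0.48 and 0.8).

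**Figure D5:**
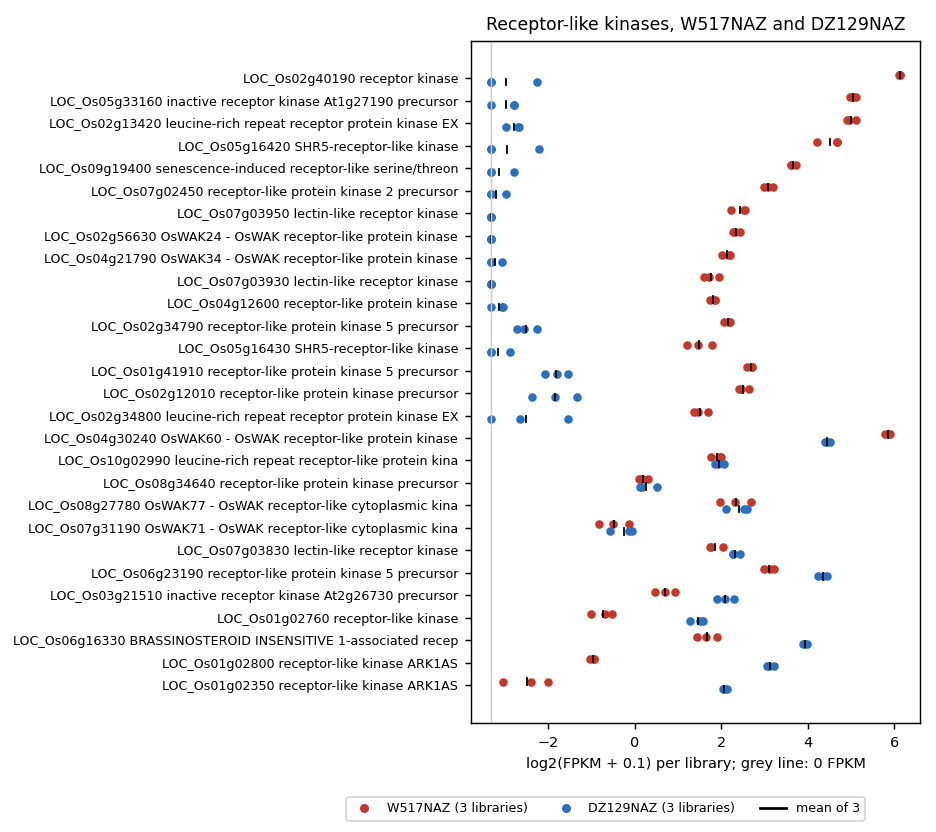
log2(FPKM + 0.1) per library of the 28 tested receptor-like kinase genes, ordered by fold change, with W517NAZ above DZ129NAZ for each gene and the grey line at 0 FPKM. In the upper 16 genes the DZ129NAZ points lie at or near 0 FPKM, in the lowest ones W517NAZ does, and OsWAK60 is read in both.

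Cytochrome P450 genes, a large family of oxidases of hormones and secondary metabolites, were DEGs in both directions. Of 12 tested genes of 17 annotated, 7 were upregulated and 2 downregulated, with a median of 2.43 that came to 0.50 without the FPKM rule. The upregulated genes included 4 that passed the rule only through W517NAZ and so had to differ, LOC_Os07g11970 among them, and of the 8 that passed in both cultivars 3 were upregulated and 2 downregulated. LOC_Os07g11970 had 41.1, 39.4 and 41.1 FPKM in W517NAZ and 0, 0 and 0.0317 FPKM in DZ129NAZ, that is 3320 reads in W517NAZ against 1 in DZ129NAZ (log2 fold change 8.53, SE 0.16, adjusted p = 5.7e-14). The ratio was 3822 with a counting interval of 685 to 150998, which the lone read leaves wide. In the other direction, LOC_Os01g43700, a cytochrome P450 72A1, had 1.23, 0.763 and 1.23 FPKM in W517NAZ against 12.2, 13.4 and 14.5 FPKM in DZ129NAZ, and LOC_Os05g35010 was 9.26-fold lower in W517NAZ. Among the upregulated, LOC_Os02g36030, LOC_Os06g37224 and LOC_Os06g43370 were read in both cultivars and were 5.2-fold, 7.9-fold and 8.83-fold higher in W517NAZ.

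Glycosyltransferases, which attach sugars to hormones, flavonoids and wall polymers, gave 1 upregulated and 5 downregulated of 10 tested genes and a median of −1.43 that came to −0.55 without the FPKM rule. Of these DEGs, 3 downregulated genes passed only through DZ129NAZ and the upregulated gene only through W517NAZ, so they had to differ. Among the 10 are the cytokinin glucosyltransferases already described. The upregulated glucosyltransferase LOC_Os04g12900 had 23.4, 19.6 and 20.8 FPKM in W517NAZ and no read in DZ129NAZ, at least 146-fold higher in W517NAZ. The glycosyl transferase family 8 gene LOC_Os06g51160 had 0.157 ± 0.0042 FPKM in W517NAZ and 4.25 ± 0.489 FPKM in DZ129NAZ (SD, n = 3 each), 27.1-fold lower in W517NAZ. The most abundant, LOC_Os06g18010 (CGT), had 13.3 ± 0.627 and 9.82 ± 0.707 FPKM in the same groups and was within the 2-fold limit.

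Heat shock and chaperone genes included the small heat shock proteins, which hold unfolded proteins in solution. Of 6 tested genes of 8 annotated, 0 were upregulated and 3 downregulated, with a median of −1.24 that came to −0.08 without the FPKM rule. HSP18.0 (LOC_Os01g08860) had 0.207, 0.526 and 0.399 FPKM in W517NAZ, against 24.8, 27.1 and 25.8 FPKM in DZ129NAZ, 68.6-fold lower in W517NAZ (log2 fold change −5.83, SE 0.19, adjusted p = 6.1e-12). HSP16.9C (LOC_Os01g04360), which passed the rule only through DZ129NAZ, was 15.1-fold lower in W517NAZ, and a DnaJ gene (LOC_Os03g19200) 5.14-fold lower. The larger chaperones did not follow. BIP1 (LOC_Os02g02410), the endoplasmic reticulum member of the DnaK family and the most abundant here, had 78.7, 77.1 and 76.9 FPKM in W517NAZ and 93.9, 99.1 and 94.6 FPKM in DZ129NAZ, a log2 fold change of −0.31, and heat shock protein 101 (LOC_Os05g44340) had 3.18 ± 0.703 and 2.31 ± 0.224 FPKM (SD, n = 3 each) in the same groups.

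Defence genes went in both directions. Of 5 tested disease resistance genes of 10 annotated, 2 were upregulated and 3 downregulated, and 4 of the 5 passed the FPKM rule through 1 cultivar only, so these had to differ. LOC_Os04g11760 had 8.47 ± 0.825 FPKM in W517NAZ and 0.0497 ± 0.0861 FPKM in DZ129NAZ (SD, n = 3 each), with 1 read in DZ129NAZ in all. The NBS-LRR gene LOC_Os06g49380 was 60.2-fold lower in W517NAZ, at 0.056 ± 0.0269 FPKM in W517NAZ and 3.37 ± 0.195 FPKM in DZ129NAZ (SD, n = 3 each), and RGH1A (LOC_Os10g03570), the most abundant, was 6.57-fold lower. These genes code for intracellular immune receptors, a family known for gain and loss of copies between rice lines.

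Of 9 tested pathogenesis-related and inhibitor genes of 17 annotated, 2 were upregulated and 3 downregulated, and 4 were no DEGs. Their median of −0.80 turned to 0.12 without the FPKM rule, and 1 of the 9 passed it only through W517NAZ. The chitinase CHIT3 (LOC_Os04g41680), which degrades the chitin of fungal walls, had 2.22, 2.81 and 3.04 FPKM in W517NAZ against 34.5, 34.6 and 35.9 FPKM in DZ129NAZ (log2 fold change −3.67, SE 0.13, adjusted p = 1.4e-11). A thaumatin family gene (LOC_Os03g46060) and the trypsin inhibitor BBTI13 (LOC_Os03g60840) were 5.95-fold and 4.32-fold lower in W517NAZ. The trypsin inhibitor BBTI7 (LOC_Os01g03390), the most abundant of the 9 tested, had 52.9 ± 5.34 FPKM in W517NAZ and 29.2 ± 1.01 FPKM in DZ129NAZ (SD, n = 3 each), a difference within the 2-fold limit. Glutathione S-transferases, which detoxify by conjugation, were lower in all 3 tested genes and by more than 2-fold in 2. LOC_Os07g28480 had 25.3 ± 2.48 FPKM in W517NAZ and 68.3 ± 4.62 FPKM in DZ129NAZ (SD, n = 3 each), and LOC_Os03g57200 was 8.77-fold lower in W517NAZ.

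Genes of dividing cells were few and showed no shared change. Of 6 tested histone and replication genes 2 were upregulated and 2 downregulated, and of 5 tested cell cycle and microtubule genes none was a DEG. MCM9 (LOC_Os06g11500), of a family of helicase proteins of DNA replication, had 0.114, 0.0844 and 0.134 FPKM in W517NAZ against 11.8, 12.2 and 11.7 FPKM in DZ129NAZ, 107-fold lower in W517NAZ (log2 fold change −5.84, SE 0.13, adjusted p = 2.5e-13), and passed the FPKM rule only through DZ129NAZ. The histone gene LOC_Os03g02780 had 1.93 ± 0.499 FPKM in W517NAZ and 13.1 ± 0.791 FPKM in DZ129NAZ (SD, n = 3 each), whereas histone H3 (LOC_Os05g36280) and the DNA polymerase alpha subunit gene POLA3 (LOC_Os07g22400) were 2.1-fold and 3.19-fold higher in W517NAZ. With pseudocounts of 0.5 and 1 neither of these upregulated genes was a DEG, and histone H3 had 0.93 without W517NAZ replicate 2 and 0.83 without DZ129NAZ replicate 1 (LOC_Os05g36280, log2 fold change). The cell division inhibitor LOC_Os02g58790 was the most abundant gene of the cell cycle list, at 15.5 ± 0.131 FPKM in W517NAZ and 27.1 ± 0.96 FPKM in DZ129NAZ (SD, n = 3 each). The 14 annotated markers of dividing cells summed to 11.4 to 12.3 FPKM in W517NAZ and 29.4 to 31.7 FPKM in DZ129NAZ, with 1 of them at 0 throughout DZ129NAZ. Most of the DZ129NAZ sum came from MCM9 and LOC_Os03g02780, at means of 11.9 and 13.1 FPKM, so the sums give no direction for the markers as a set. Of 6 tested markers 1 was upregulated and 2 were downregulated, and 4 of the 6 tested histone and replication genes lay above 0. Of these 4 genes, 2 passed the FPKM rule only through W517NAZ and so had to lie above 0.

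Downregulated transcription factor genes came from the AP2, B3, NAC, bZIP, zinc finger and MYB families. The only tested bHLH gene, LOC_Os02g34320, was upregulated, at 0.995 ± 0.393 FPKM in W517NAZ and 0.21 ± 0.139 FPKM in DZ129NAZ (SD, n = 3 each). It passed the FPKM rule only through W517NAZ. The only tested WRKY and homeobox genes were no DEGs, with log2 fold changes of −0.05 and −0.06. The AP2 domain gene LOC_Os01g21120, of the family of ethylene and drought regulators, had 8.79, 9.84 and 9.9 FPKM in W517NAZ against 61.4, 69.2 and 63.1 FPKM in DZ129NAZ (log2 fold change −2.75, SE 0.06, adjusted p = 2.5e-13). The B3 domain gene LOC_Os01g13300, the NAC-type gene LOC_Os02g34970 (no apical meristem protein) and the bZIP gene LOC_Os02g58670 were 4.42-fold, 4.04-fold and 2.67-fold lower in W517NAZ. Of 10 tested zinc finger genes, ZOS2-03 (LOC_Os02g05610) was 10.1-fold lower and ZOS9-17 (LOC_Os09g38340) 3.9-fold higher in W517NAZ, and the most abundant, LOC_Os01g52110 with a RING and a CHY finger, had 64.1 ± 4.96 FPKM in W517NAZ and 120 ± 3.72 FPKM in DZ129NAZ (SD, n = 3 each) within the 2-fold limit. Of 3 tested MYB genes, LOC_Os02g46940 was 9.76-fold lower in W517NAZ from 6 reads in W517NAZ and 67 in DZ129NAZ, and the abundant LOC_Os01g65370 had 51.3 ± 0.525 and 71.2 ± 2.71 FPKM (SD, n = 3 each) in the same groups. ZOS2-03 and LOC_Os02g46940 passed the FPKM rule only through DZ129NAZ and so had to be lower in W517NAZ. Among the tested zinc finger genes, 1 passed the rule only through W517NAZ and so had to be higher there.

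Among lipid genes, a pair of fatty acid desaturases was upregulated. These enzymes place double bonds in the fatty acids of membranes. LOC_Os07g23430 had 9.04, 10.2 and 11.6 FPKM in W517NAZ against 0.579, 0.883 and 0.956 FPKM in DZ129NAZ (log2 fold change 3.53, SE 0.17, adjusted p = 3.2e-10). Its neighbour by number, LOC_Os07g23410, had 16.7 ± 1.69 FPKM in W517NAZ and 1.8 ± 0.572 FPKM in DZ129NAZ (SD, n = 3 each), and close copies may share reads. The most abundant lipid gene, the GDSL-like lipase LOC_Os04g48800, had 57.1 ± 1.42 and 82.8 ± 2.44 FPKM (SD, n = 3 each) in the same groups, within the 2-fold limit. The aquaporin TIP4-3 (LOC_Os01g13120), a water channel of the vacuole membrane, was 3.59-fold higher in W517NAZ. The most abundant gene of the metal transport list, the metal cation transporter LOC_Os07g12890, differed little, at 33.9 ± 1.39 FPKM in W517NAZ and 38.9 ± 1.12 FPKM in DZ129NAZ (SD, n = 3 each).

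Genes annotated as transposons and retrotransposons were the largest family by number. Of 115 annotated genes 41 passed the FPKM rule, 25 only through W517NAZ and 9 only through DZ129NAZ, so most had to differ. There were 25 upregulated and 12 downregulated genes, with a median of 3.12, or 3.23 with the 16 genes that had no read in DZ129NAZ set at their bound. Without the FPKM rule the median was 0.55. LOC_Os08g12950, a transposon protein of the Pong sub-class, had 7.87, 7.93 and 8.91 FPKM in W517NAZ and no read in DZ129NAZ, at least 69.9-fold higher in W517NAZ. Another of the same sub-class, LOC_Os09g06634, had 0.0606 ± 0.0287 FPKM in W517NAZ and 30.7 ± 1.32 FPKM in DZ129NAZ (SD, n = 3 each), 506-fold lower in W517NAZ. Such genes exist in many copies, and their reads are uncertain in origin.

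Set beside the AZ, the cultivar difference in the NAZ was often of another size. In limma's interaction test, which compares W517 minus DZ129 in the NAZ with the same in the AZ, 9723 genes (45.0%) had an adjusted p below 0.05. Of the 5788 DEGs, 4082 were DEGs in the same direction in the AZ and 32 were DEGs in the opposite direction. The AZ contrast helped to choose the annotated genes, so its size in them is a description. The choice also required a tissue difference in W517 and none in DZ129, which favours an interaction. Among the 657 tested annotated genes, 555 had a limma interaction adjusted p below 0.05. Such a p in a listed gene is no independent evidence. The photosynthesis list had a median of −0.41 in the NAZ and −1.23 in the AZ, the prolamins 4.24 in the NAZ and 7.41 in the AZ, and the receptor-like kinases 4.42 in the NAZ and 2.09 in the AZ. The FPKM rule used the NAZ libraries alone, and 16 of the 28 tested kinases and 9 of the 10 prolamins passed it only through W517NAZ. This favoured a large NAZ difference in them, so the larger NAZ median of the kinases is no finding about the tissues. OsIAA4 differed by −3.94 in the NAZ and −1.10 in the AZ on the log2 scale (interaction adjusted p = 2.0e-06).

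Actin (LOC_Os01g71770), the internal control of the study's qRT-PCR, was nearly level. It had 54.7, 50.5 and 50 FPKM in W517NAZ and 46.5, 43.9 and 43.8 FPKM in DZ129NAZ, which did not overlap, with a log2 fold change of 0.21 (SE 0.05, adjusted p = 0.0014).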

How the data were processed

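RNA was sequenced from AZ and NAZ pedicel pieces of both cultivars, with stranded mRNA libraries. Per the methods and the labels, Trimmomatic did the trimming, HISAT2 the mapping to MSU-RGAP 7.0 and Cufflinks the FPKM. FPKM is what the authors deposited, with no further normalization. Reads per gene were recovered from them for all 35851 genes, since each value was a whole read number over gene length and library total. The tolerance was 0.02 reads. Abundant genes that it left unresolved were given reads by a looser fit, chosen so that the library totals added up. The recovered reads served for depth, lower bounds and 1 alternative test.

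Log2(FPKM + 0.1) of all 12 libraries was fitted with limma 3.58.1 (limma-trend, R 4.3.3) in a model of the 4 groups, and p-values were adjusted over the 21592 genes tested by the Benjamini-Hochberg method. DEGs were genes past an adjusted p of 0.05 whose log2 fold change exceeded 1 in size. The procedure was tested on simulated data. Bounds use 3 reads per library, and read ratios carry exact 95% intervals. Intervals and bounds cover counting error only. Tables were made with pandas 2.3.3, scipy 1.17.1 and numpy 2.4.6 under Python 3.11.15, and plots with matplotlib 3.10.9.

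Product names came from the readable part of the study's list of AZ-specific genes of W517, and 40 families were formed by words in those names. Hand-written lists of loci with gene names were not used, since no source used here paired those names with the loci, and no sequence was matched. In each family with at least 3 tested genes, the text names the most abundant gene and the DEGs with the highest and lowest fold change whose groups do not overlap, and also the loci named in the study's text. Members, lists and rules were chosen with earlier results of these data known, and further genes, the GO and pathway lists and the OsWAK list were added with their values in view. Alternatives tried were 0.5 or 1 as the pseudocount, the FPKM minimum dropped or raised to 1, quantile normalization, median-ratio scaling, the 6 NAZ libraries alone, the replicate number as a block, limma voom on recovered reads and leaving out each NAZ library in turn.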

Additional observations from a re-analysis of the deposited data

Results flagged for a closer look

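Because an interaction was found for 45.0% of all genes, only the described DEGs that were also DEGs in the opposite direction in the AZ are given. OsWAK60 (LOC_Os04g30240) was higher in W517NAZ by a log2 fold change of 1.41 and lower in W517AZ, at −1.10 (interaction adjusted p = 7.1e-10). Gibberellin 2-beta-dioxygenase 7 (LOC_Os02g41954) had 1.29 in the NAZ and −1.05 in the AZ (6.0e-05). The cytokinin-O-glucosyltransferase 2 gene LOC_Os02g51930 had −1.88 in the NAZ and 1.36 in the AZ (7.7e-07). The inactive receptor kinase gene LOC_Os03g21510 had −1.40 in the NAZ and 1.87 in the AZ (2.3e-07). Nicotianamine synthase LOC_Os07g48980 had −1.07 in the NAZ and 1.06 in the AZ (1.3e-07). All p-values are limma's, adjusted over all genes tested. The 5 genes belong to a list chosen on the AZ contrast and on a tissue difference in W517 but not in DZ129. That choice favours an interaction, which 555 of the 657 tested annotated genes had at an adjusted p below 0.05. These p-values are therefore no independent evidence.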

How the results depend on the processing

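The number of DEGs was 4054 with pseudocount 1 and 7768 without a filter, the lowest and highest of the alternatives. Upregulated genes numbered 1288 with pseudocount 1, against 1951, and this was the only change of more than 1.5 times among the totals and the interaction count. Leaving out 1 NAZ library at a time gave 5742 to 5813 DEGs and 9037 to 9355 interactions. Quantile normalization gave 49.7% upregulated among the DEGs, against 33.7%, and median-ratio scaling 36.9%. Equal replicate numbers did not mark shared deviations (correlations of 0.01, 0.00 and −0.02), and with the replicate number as a block 5791 genes were DEGs and no call of the 231 genes followed changed. Of those 231 genes none changed sign as a DEG in any alternative, 24 lost the call with pseudocount 1 and 6 with pseudocount 0.5, and with a minimum of 1 FPKM 190 could be tested and kept their calls. Under quantile normalization 4 lost it, LOC_Os03g21510, LOC_Os04g22900, LOC_Os07g48980 and LOC_Os09g28230, and 14 gained it.

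Several family medians were nearer 0 without a filter, at 0.65 for receptor-like kinases, 0.50 for cytochrome P450 and 0.55 for transposons, because genes with few reads then entered. It was −0.22 for auxin, −0.36 for ethylene, −0.58 for gibberellin, −0.55 for glycosyltransferases, −0.08 for heat shock proteins and −0.08 for MYB genes, and 0.62 for lipid genes. A minimum of 1 FPKM left 4 upregulated cytochrome P450 genes, against 7, and 15 upregulated transposon genes, against 25. Family medians changed sign where they were small or members were few. Without a filter they became 0.25 for cell wall hydrolases, 0.30 for phenylpropanoid and flavonoid enzymes, 0.06 for zinc fingers, 0.59 for disease resistance proteins, 0.12 for pathogenesis-related proteins and 0.35 for metal transporters. Quantile normalization gave 0.33 for phenylpropanoid and flavonoid enzymes, 0.05 for zinc fingers and 0.19 for metal transporters, and median-ratio scaling 0.02 for metal transporters. With a minimum of 1 FPKM the median was 0.07 for MYB genes and −1.0 for histones and replication. Leaving out 1 library at a time gave −0.14 to 0.02 for phenylpropanoid and flavonoid enzymes, the highest without W517NAZ replicate 2, and −0.13 to 0.03 for metal transporters, the highest without W517NAZ replicate 1. Depth limits genes with a few reads, where 1 read decides the ratio.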
